A study of Mus musculus with 10 samples.

Results

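Receptor-type protein tyrosine phosphatases are a family of transmembrane enzymes, and 10 of their genes (Ptpra, Ptprd, Ptpre, Ptprf, Ptprg, Ptprj, Ptprk, Ptprm, Ptprn and Ptprs) were followed here among 23553 genes with a value. The 10 were given by name, and where a gene had several RefSeq transcript rows the row with the highest mean stood for it. Neuro-2a cells, a mouse neuroblastoma line whose strain the labels give as C57BL/6+C57BL/6J+CBA, were transfected with a Stealth siRNA in medium with 2% serum, which the labels call a differentiated condition. The control siRNA was directed against luciferase (Luc), a gene foreign to mouse cells, and the other against Sfpq, an RNA- and DNA-binding protein of the nucleus. Poly(A)-selected RNA gave 3 libraries per siRNA, beside a single pair made after removal of ribosomal RNA (RiboMinus). The labels name neither a second siRNA nor separate cultures, so p-values measure only how far these libraries scatter, and that scatter may be technical.

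These enzymes remove phosphate from tyrosine residues and so oppose tyrosine kinases at the cell surface. Each has an extracellular part that can bind adhesion molecules or proteoglycans, 1 membrane span, and a cytoplasmic part that usually holds a catalytic domain next to the membrane. In neurons the family is known for axon growth and guidance, for the assembly of synapses and, in the case of Ptprn, for secretory granules. The series title concerns long neuronal genes. Ptprd, Ptprg, Ptprk and Ptprm are known to occupy very long stretches of the genome, whereas Ptprn, Ptprs and Ptprf are compact, but no gene length was measured here.

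Sfpq RNA was 56.8, 60.8 and 73.0 RPKM (reads for each kilobase of a transcript, scaled to library size) in the Luc and 3.98, 4.75 and 6.47 in the Sfpq poly(A) libraries, and 30.8 and 4.43 in the rRNA-depleted pair. These values are of a noncoding transcript row of the gene. Its coding row fell from 48.0 ± 8.33 to 4.17 ± 1.01 RPKM in poly(A) RNA (SD, n = 3), and from 28.5 to 4.98 in the rRNA-depleted pair. RPKM holds no read counts. Steps between low values put the relative depth of the poly(A) libraries between 0.628 and 1.28 times that of Luc replicate 1. The rRNA-depleted pair came to 2.64 and 2.65 times. Luc replicate 3 stood somewhat apart, correlating at 0.985 and 0.979 (log2 values, across genes) with Luc replicates 1 and 2, which correlated at 0.996 with each other. All 12 neuroblastoma markers, such as Tubb3, had a mean of at least 1 RPKM. Their summed level ran from 1735 to 1998 RPKM in Luc and from 1546 to 1627 in Sfpq libraries. At a limma adjusted p under 0.05, 5 fell (among them Isl1, log2 fold change -1.13) and 3 rose (Chga 0.75 and Dbh 0.54). These are 41.7% and 25% of the 12, beside 18.6% lower and 21.3% higher over all genes tested. The Dbh call ended without Sfpq replicate 2. Of 13 markers of other cell types, 4 (Csf1r, Aqp4, Sox10 and Krt5) were listed at 0 in all 6 poly(A) libraries and 1 (Pecam1) had a mean of at least 1 RPKM, with sums of 3.03 to 3.35 RPKM in Luc and 1.94 to 2.49 in Sfpq libraries. Whether these shifts have a part in the results below was not tested. In bulk RNA, fewer cells with a transcript and less of it per cell cannot be told apart.

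Neuro-2a cells carried 7 of the 10 transcripts at measurable levels, and the remaining 3 were at or near 0 in all 8 libraries. Ptprm, a receptor with a MAM domain that binds itself on a neighbouring cell, was listed at 0 in each. Ptprk, its close relative, reached 0.00524 RPKM in Luc replicate 3, 0.00254 in the Luc and 0.00252 in the Sfpq rRNA-depleted library, and was listed at 0 elsewhere. Ptprd, a receptor of the LAR group that organises synapses, was listed at 0.00397 in Luc replicate 2 and 0.00341 in the Sfpq rRNA-depleted library, and at 0 in the other 6. No change can be read for these 3 genes, which fell under the filter of a mean of 0.5 RPKM and were not tested. The LAR group was thus carried by Ptprf and Ptprs, and the MAM-domain group had no measurable member among those followed.

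RPKM divides by transcript length, so the levels of different genes can be set in order. In Luc poly(A) libraries Ptprn came first (35.1 ± 6.81 RPKM, SD, n = 3), next to Ptpra (33.5 ± 0.942, SD, n = 3), and these overlapped. Ptprf followed at 15.7 ± 2.02 and Ptprs at 6.56 ± 1.19 (SD, n = 3), each apart from its neighbours. Ptprg (4.24 ± 0.632, SD, n = 3) and Ptprj (3.70 ± 0.487, SD, n = 3) overlapped, and Ptpre was the lowest of the 7 at 2.50 ± 0.232 (SD, n = 3). In Sfpq libraries Ptprj (4.97 ± 0.163 RPKM, SD, n = 3) stood above Ptprg (1.77 ± 0.253, SD, n = 3), and no 2 neighbours among the 7 overlapped. The order was not the same in the single rRNA-depleted Luc library, where Ptprs (7.78 RPKM) lay above Ptprf (7.05) and Ptprj (5.39) above Ptprg (3.76).

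**Figure D1:**
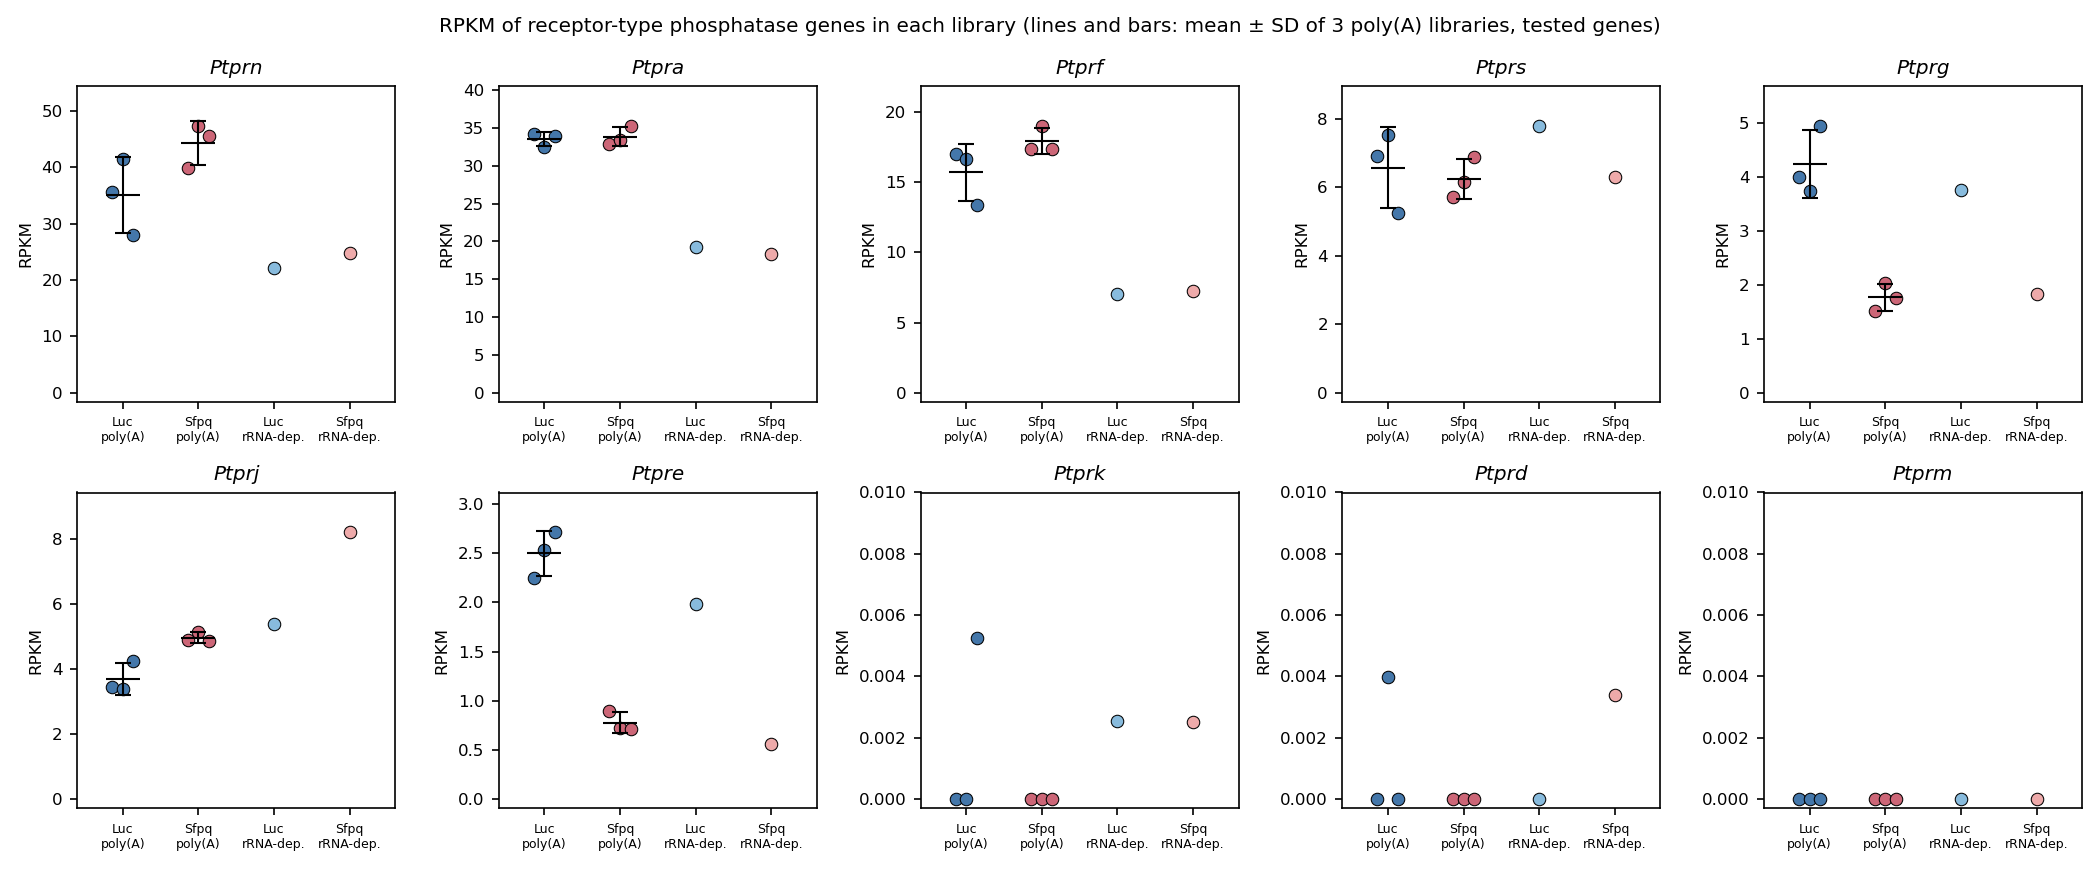
RPKM (vertical axis, a scale of its own for each gene) of the 10 genes in each library, with Luc and Sfpq poly(A) libraries and the single Luc and Sfpq rRNA-depleted libraries along the horizontal axis; lines and bars give the mean and SD of 3 poly(A) libraries for the 7 tested genes. Ptprg and Ptpre drop from Luc to Sfpq in both preparations, Ptprj is higher, and Ptprk, Ptprd and Ptprm do not exceed 0.00524 RPKM.

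The first comparison asks which of these genes respond to loss of Sfpq in poly(A) RNA. Of the 7 tested members, 2 fell (Ptpre and Ptprg), 1 rose (Ptprj) and 4 did not pass (limma on log2(RPKM + 0.5), Benjamini-Hochberg adjusted p under 0.05). Over all 11727 genes tested, 18.6% fell and 21.3% rose, so neither count stands far from that background. The median log2 fold change of the 7 was 0.01, beside 0.05 for all genes. The Sfpq and Luc libraries did not overlap for 4 of the 7, with 2 members below and 2 above (24.7% of all tested genes lay below and 28.2% above).

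Ptpre had the largest change of the family members followed. It encodes a receptor with a very short extracellular part and, from another start, a cytosolic form, and acts on Src-family kinases and potassium channels. With Luc siRNA its level was 2.25, 2.53 and 2.71 RPKM, and with Sfpq siRNA 0.899, 0.720 and 0.716. Every Sfpq value lay below every Luc value, and 31.1% of the Luc mean was left. The log2 fold change was -1.23 (SE 0.13, 95% confidence interval -1.51 to -0.95, limma adjusted p = 8.86e-05). The rRNA-depleted pair went from 1.99 RPKM with Luc to 0.564 with Sfpq siRNA, or 28.4% of Luc.

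Ptpra is the closest relative of Ptpre and is best known for activating Src-family kinases by removing their inhibitory phosphate. It had 34.2, 32.4 and 33.9 RPKM in the Luc and 32.9, 33.4 and 35.3 in the Sfpq libraries. The groups overlapped throughout, and the log2 fold change was 0.01 with a 95% interval of -0.19 to 0.22 (limma adjusted p = 0.918). Its sign became negative with median-ratio scaling of the libraries (-0.027). The rRNA-depleted values were 19.2 and 18.4. The log2 gap of Ptpre below Ptpra widened from -3.51 ± 0.130 with Luc to -4.75 ± 0.155 with Sfpq siRNA (SD, n = 3), a difference of -1.24 with no overlap. The two-sided exact permutation test gave p = 0.1, the smallest that 3 against 3 libraries allow, and 0.1 after adjustment over the 5 gaps and ratios compared in this way. All 5 were chosen after the values were seen.

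Ptprg, which carries a carbonic anhydrase-like domain outside the cell and binds contactins, also fell. Luc libraries had 4.01, 3.75 and 4.95 RPKM and Sfpq libraries 1.52, 2.03 and 1.75. The groups were well separated, and 41.7% of the Luc mean was left. The log2 fold change was -1.06 (SE 0.14, 95% interval -1.38 to -0.74, limma adjusted p = 0.00042). The rRNA-depleted pair went from 3.76 to 1.82 RPKM.

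Ptprj, also called CD148 or DEP-1, has a single catalytic domain and acts on receptor tyrosine kinases. It moved the other way. Its level was 3.44, 3.402 and 4.26 RPKM in Luc and 4.90, 5.16 and 4.86 in Sfpq libraries, without overlap, which is 1.34-fold higher in the mean. The log2 fold change was 0.39 (SE 0.12, 95% interval 0.12 to 0.66, limma adjusted p = 0.029). The call ended when any library but Luc replicate 3 was left out: without Luc replicate 1 (limma adjusted p = 0.116) or 2 (0.0796), or without Sfpq replicate 1 (0.063), 2 (0.112) or 3 (0.0836). The log2 fold change in these 5 fits lay between 0.34 and 0.40, and was 0.48 without Luc replicate 3. With no filter on low values it also missed the threshold (limma adjusted p = 0.0516).

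The windows upstream of the 3 genes that changed are shown because their RNA is what moved. Each is the 250 bases before the most upstream annotated start, read 5′ to 3′ on the gene's strand (RefSeq, build GRCm38.p6). Which start gave the measured transcript is not known from RPKM values. Capitals mark the GC box GGGCGG or its reverse complement CCGCCC; the TATA box TATAAA and the CCAAT box CCAAT were searched on both strands as well and occur in none of the 3, and no matches overlapped.
Ptpre, chr7:135537574-135537823, plus strand: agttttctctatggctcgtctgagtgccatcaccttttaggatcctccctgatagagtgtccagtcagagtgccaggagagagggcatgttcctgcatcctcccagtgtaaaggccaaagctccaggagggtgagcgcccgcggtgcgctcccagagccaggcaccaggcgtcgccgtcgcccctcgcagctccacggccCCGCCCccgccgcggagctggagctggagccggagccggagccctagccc
Ptprg, chr14:11553303-11553552, plus strand: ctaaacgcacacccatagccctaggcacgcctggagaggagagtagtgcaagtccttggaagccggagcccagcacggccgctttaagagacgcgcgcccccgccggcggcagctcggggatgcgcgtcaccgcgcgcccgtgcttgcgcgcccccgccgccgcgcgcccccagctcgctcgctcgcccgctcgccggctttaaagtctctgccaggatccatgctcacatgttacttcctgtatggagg
Ptprj, chr2:90580596-90580845, minus strand: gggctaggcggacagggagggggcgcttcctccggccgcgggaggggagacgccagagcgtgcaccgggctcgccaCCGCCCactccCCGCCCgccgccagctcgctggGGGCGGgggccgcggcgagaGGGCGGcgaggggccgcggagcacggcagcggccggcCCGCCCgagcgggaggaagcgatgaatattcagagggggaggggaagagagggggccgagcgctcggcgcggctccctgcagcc
The Ptprj window held 5 GC boxes, that of Ptpre 1 and that of Ptprg 0. CpG dinucleotides numbered 34, 17 and 31 in the same order. Over 32851 windows of annotated starts, with those on 1 chromosome left out, the median was 6. A GC box was present in 32.7% of those windows, a TATA box in 12.4% and a CCAAT box in 33.8%. They are not limited to the most upstream start of a gene, and not every gene has one. Windows at the members' other starts held 3 to 15 CpG. The background is therefore not a like-for-like measure for most upstream windows, and no difference from it was tested. Windows were found for 9 of the 10 members (not for Ptprd). A GC box was in the most upstream window of 6 of the 9, including Ptpra, Ptprf, Ptprk and Ptprm, whose RNA did not pass the test or was not measurable. A TATA box was in 0 of the 9 and a CCAAT box in 1, that of Ptpra.

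The measured LAR-group receptors showed no call. Ptprf (LAR) binds proteoglycans and synaptic adhesion partners, and its product works on the cadherin-catenin complex. It had 17.1, 16.7 and 13.4 RPKM in Luc and 17.4, 19.0 and 17.4 in Sfpq libraries. The groups did not overlap, by a narrow margin, and the log2 fold change of 0.19 did not pass (95% interval -0.08 to 0.46, limma adjusted p = 0.225). Ptprs, a receptor for heparan and chondroitin sulphate proteoglycans that restrains axon growth, had 6.92, 7.54 and 5.24 RPKM in Luc and 5.70, 6.14 and 6.87 in Sfpq libraries. These overlapped fully (log2 fold change -0.06, 95% interval -0.39 to 0.27, limma adjusted p = 0.777). Its sign turned positive without Luc replicate 2 (0.042). The gap of Ptprs below Ptprf was -1.21 ± 0.0944 with Luc and -1.45 ± 0.153 with Sfpq siRNA (SD, n = 3), a difference of -0.25 (two-sided exact permutation p = 0.1, the smallest possible).

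Ptprn (IA-2), a catalytically inactive member that sits in the membrane of dense-core secretory granules, had 35.7, 41.6 and 28.002 RPKM in Luc and 39.9, 47.4 and 45.6 in Sfpq libraries. The groups overlapped through Luc replicate 2. The log2 fold change of 0.35 (SE 0.15) had a 95% interval of 0.02 to 0.68 and did not pass after adjustment (limma adjusted p = 0.0873). It passed without Luc replicate 2 (0.48, limma adjusted p = 0.0238) and was 0.20 without Luc replicate 3.

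The second comparison puts the same question to RNA depleted of ribosomal RNA, which also keeps transcripts without a poly(A) tail. With 1 library per group there is no replicate check and no test, and a gene is counted when it differs by 1.5-fold or more on the log2(RPKM + 0.5) scale. On that count 2 of the 7 members were lower, Ptpre (log2 ratio -1.22) and Ptprg (-0.87), and 0 were higher. Of 11386 genes, 13.3% were lower and 7.86% higher. Ptprj came close to the limit at 0.56, from 5.39 to 8.20 RPKM, and passed it with a pseudocount of 0.1 (0.60). Ptprs had a ratio of -0.28 (7.78 and 6.31 RPKM), Ptpra -0.07, Ptprf 0.03 (7.05 and 7.21 RPKM) and Ptprn 0.17 (22.1 and 24.9 RPKM). The 3 members called in poly(A) RNA all had the same sign here, as did 4434 of the 4474 genes called there that were measured in both. Whether the effects differ between the preparations was not tested.

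**Figure D2:**
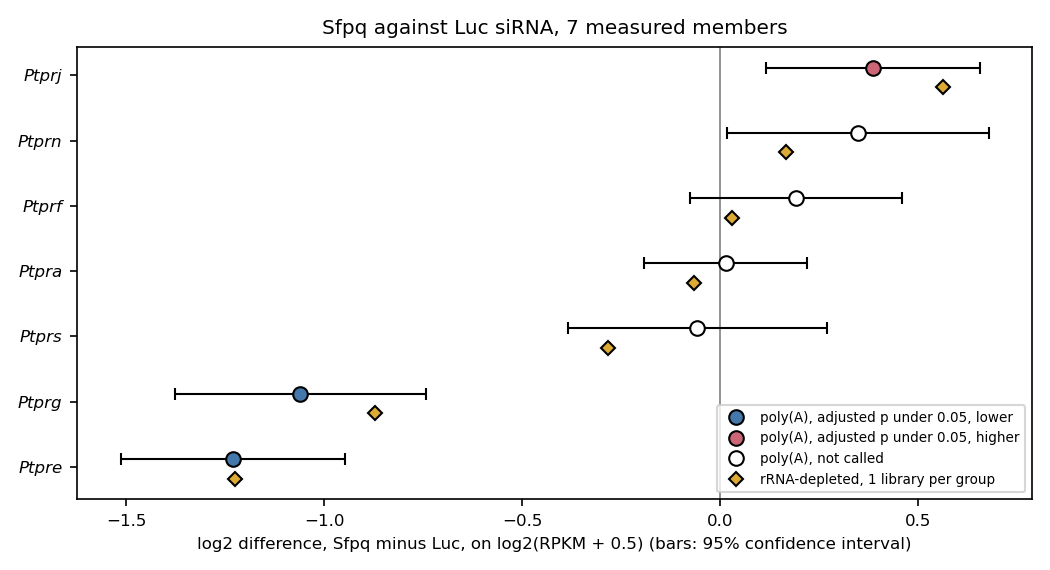
Log2 difference between Sfpq and Luc (horizontal axis, log2(RPKM + 0.5) scale) for the 7 tested genes; circles give the poly(A) fold change with its 95% confidence interval (3 libraries per group), filled where called, and diamonds the single rRNA-depleted pair. Ptpre (-1.23 and -1.22) and Ptprg (-1.06 and -0.87) lie to the left in both preparations, and the intervals of Ptprs, Ptpra and Ptprf span 0.

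The 10 members have 15 RefSeq rows, of which 12 were tested in a fit over 16793 rows (19.3% of all rows lower and 21.6% higher). Of the 12, 2 fell, 2 rose and 8 did not pass, the same genes as above. Rows of 1 gene share most of their reads and are not replicates of each other. The 2 Ptpra rows had log2 fold changes of 0.01 and 0.01, and the 4 Ptprs rows lay between -0.06 and -0.05. Both Ptprj rows rose, NM_001135657 by 0.39 and NM_008982 by 0.51 on the log2 scale (limma adjusted p = 0.0279 and 0.00954). Of these calls, that of NM_008982 ended without Luc replicate 1 (limma adjusted p = 0.0509), and that of NM_001135657 with any library but Luc replicate 3 left out (0.0601 to 0.112). The ratio of NM_001135657 to NM_008982 was 1.26, 1.149 and 1.17 in Luc and 1.08, 1.08 and 1.06 in Sfpq poly(A) libraries. It was thus nearer to equality in every Sfpq library (log2 difference -0.15, two-sided exact permutation p = 0.1, the smallest possible). The rRNA-depleted libraries gave 1.27 and 1.20.

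**Figure D3:**
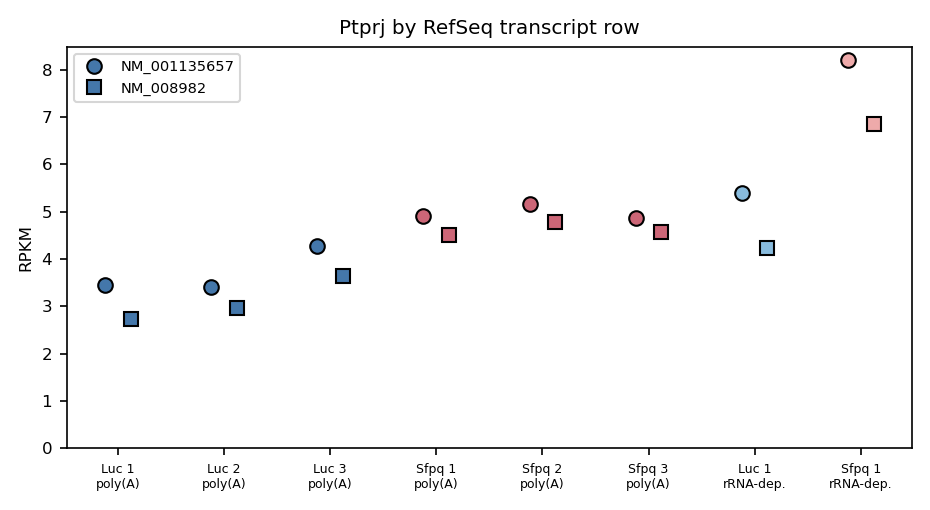
RPKM (vertical axis, from 0) of the 2 RefSeq rows of Ptprj in each of the 8 libraries (horizontal axis); circles are NM_001135657 and squares NM_008982. The squares lie under the circles in every library, by the most in the rRNA-depleted pair, and both are higher in each Sfpq library than in the Luc libraries of the same preparation.

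Other receptor-type phosphatases were compared from a list of 11 written for this purpose, of which 10 had a row and 3 were tested. Ptprr, a receptor whose product binds and inactivates MAP kinases, had 6.08, 5.798 and 6.19 RPKM in Luc and 0.986, 1.19 and 0.996 in Sfpq libraries (log2 fold change -2.07, SE 0.11, limma adjusted p = 2.64e-06). Ptprn2 (phogrin), the granule relative of Ptprn, had 4.10, 3.73 and 3.61 RPKM in Luc and 1.53, 1.16 and 1.64 in Sfpq libraries (-1.15, SE 0.13, limma adjusted p = 0.000176). Both fell without overlap, and their rRNA-depleted ratios were -1.496 and -1.06. Ptpru, a MAM-domain receptor, did not pass (4.75 ± 0.620 against 5.13 ± 0.633 RPKM, SD, n = 3; limma adjusted p = 0.578). The list had 2 lower and 0 higher of 3 (0 higher also at an unadjusted limma p under 0.05), with a median of -1.15. Over all genes tested, 18.6% fell and 21.3% rose, with a median of 0.05. As 7 of the 10 with a row were under the filter, these 3 do not stand for the whole list. The gap of Ptprn2 below Ptprn went from -3.03 ± 0.264 to -4.53 ± 0.280 (SD, n = 3), a difference of -1.502 without overlap (two-sided exact permutation p = 0.1, the smallest possible).

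Cytosolic tyrosine phosphatases, which share the catalytic fold but lack a membrane span, had 0 lower and 3 higher of 13 tested (limma; 0 lower and 4 higher at unadjusted p under 0.05), with a median of 0.18. Ptpn13, a large scaffold-like enzyme, rose from 3.36 ± 0.173 to 6.14 ± 0.0770 RPKM (SD, n = 3; log2 fold change 0.79, limma adjusted p = 0.000417). Ptpn21 rose by 0.44 (limma adjusted p = 0.0221), a call that ended without Luc replicate 1 (limma adjusted p = 0.0933), Sfpq replicate 2 (0.0946) or its replicate 3 (0.103). The count of higher genes was 5 without Luc replicate 3, and 1 without Sfpq replicate 2 or Sfpq replicate 3. The share of these genes that rose was near the 21.3% of all genes.

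Extracellular ligands and co-receptors of the family had 6 lower and 3 higher of 17 tested, with 8 not past the test and a median of -0.12 (18.6% of all genes fell and 21.3% rose); 23 of the 40 written were under the filter. Ptn (pleiotrophin), a growth factor that binds receptor-type phosphatases, fell from 19.1 ± 0.907 to 3.68 ± 0.583 RPKM (SD, n = 3; log2 fold change -2.24, limma adjusted p = 2.81e-06). The glypican gene Gpc6, a heparan sulphate proteoglycan of the kind that LAR-group receptors bind, fell from 2.49 ± 0.199 to 0.209 ± 0.0607 RPKM (SD, n = 3; -2.08). Il1rap (-0.61), a partner of Ptprd, and Nrcam (-0.97), both chosen after their values were seen, also fell. Of the 17, 2 passed the filter through the Luc group alone (Gpc6 and Nrcam). The contactin gene Cntn3 (0.45) and the chondroitin sulphate proteoglycan gene Ncan (0.43) rose. The Cntn3 call ended without Luc replicate 1 (limma adjusted p = 0.07), its replicate 2 (0.0571), Sfpq replicate 2 (0.0784) or its replicate 3 (0.0772), and the Ncan call with Luc replicate 1 (0.0609), Sfpq replicate 1 (0.05003) or its replicate 2 (0.0817) left out. The number higher was 0 without Luc replicate 1 or Sfpq replicate 2, and 1 without Sfpq replicate 1 or Sfpq replicate 3.

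Intracellular partners and substrates had 8 lower, 8 higher and 6 not past the test among 22, with a median of 0.04, beside the same 18.6% and 21.3% of all genes. The liprin Ppfibp2, of a family that links LAR-group receptors to the active zone, fell from 18.6 ± 0.257 to 6.33 ± 0.522 RPKM (SD, n = 3), a log2 fold change of -1.49. The other tested liprins did not move together. Ppfibp1 fell (-0.80, limma adjusted p = 0.000613) and Ppfia3 rose (0.56, limma adjusted p = 0.0155). Ppfia1 (-0.08) and Ppfia2 (0.03) did not pass. The Src-family kinase Fyn, a substrate of Ptpra, fell from 20.1 ± 1.11 to 8.25 ± 0.688 (SD, n = 3; -1.24), while Src itself, chosen after its values were seen, rose from 2.92 ± 0.543 to 5.73 ± 0.445 (SD, n = 3; 0.87). The junction proteins Jup (plakoglobin; 1.21) and Cdh2 (N-cadherin; 4.03 ± 0.446 to 8.68 ± 0.341 RPKM, SD, n = 3; 1.02) rose. Limma adjusted p for Ppfibp2, Fyn, Src, Jup and Cdh2 lay between 9.84e-06 and 0.00131. With Sfpq replicate 2 left out 4 partners were higher, and with Sfpq replicate 3 left out 5.

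**Figure D4:**
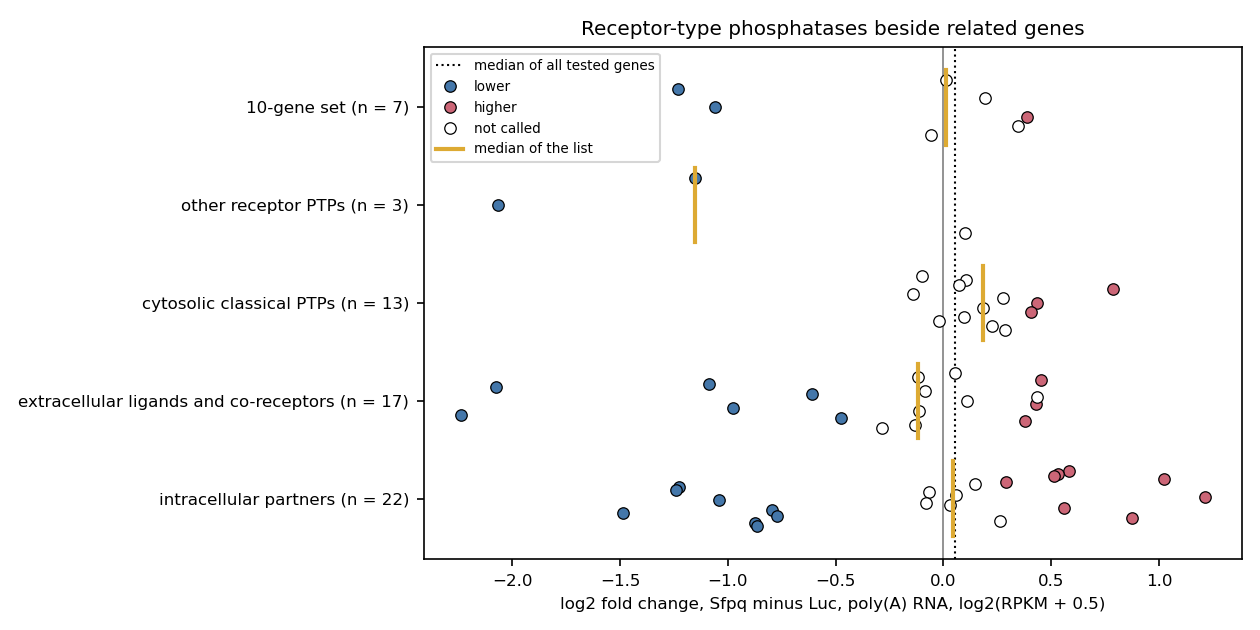
Poly(A) log2 fold change (horizontal axis, Sfpq minus Luc) of each tested gene in the 10-gene set and in 4 lists of related genes; filled points passed the test, thick lines are list medians and the dotted line is the median of all genes (0.05). The 10-gene set shows Ptpre and Ptprg apart on the left with the other 5 between -0.06 and 0.39.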

How the data were processed

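The authors deposited RPKM values, 1 file for each library, with a row for every RefSeq transcript. The submitters' processing notes name TopHat2 2.0.10 and the mouse build mm9. How RPKM was computed, and how reads with several matches were treated, is not given in the sources used here. This unit removes library size and transcript length, so low genes are noisier than high ones without the values showing it, no interval from read counts can be given, and precision comes from the replicates alone. Groups and replicate numbers come from the sample titles; for Sfpq poly(A) replicate 2 the description gives another number. RNA polymerase II chromatin immunoprecipitation is not analysed here.

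Of 30978 rows, 30507 (98.5%) were named through a gene table of assembly GRCm38.p6, used for names and for the RefSeq upstream windows only. The poly(A) test was limma 3.58.1 (R 4.3.3), with a prior that follows expression level, applied to log2(RPKM + 0.5). Genes entered when their mean over the 6 libraries reached 0.5 RPKM, and p-values were adjusted over all of them. Other steps used Python 3.11.15 with numpy 2.4.6, pandas 2.3.3, scipy 1.17.1 and matplotlib 3.10.9. The pseudocount understates changes of low genes such as Ptpre. Data were simulated for the poly(A) comparison with 11727 genes, of which only a small share was changed. In them 81% of changes of 1 log2 unit and 99% of changes of 2 were recovered, and 0.0347% of unchanged genes were called. In the real libraries 18.6% of genes were called lower and 21.3% higher, so the simulated rates need not hold there. The genes named are all 10 members, Sfpq and the 2 largest called changes per direction in each of 6 lists; others were chosen after their values were seen, and 1 gene under this rule is not reported here. The members and lists were chosen with earlier results of these data known. Of 120 symbols written in the lists, 118 were found. Alternatives were a replicate block, leaving out each library, pseudocounts of 0.1 and 1, quantile normalization, median-ratio scaling, an untrended limma prior, averaging the rows of each gene, and either no filter or one at 2 RPKM.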

Additional observations from a re-analysis of the deposited data

How the results depend on the processing

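Ptpre and Ptprg kept their call under every alternative that tested them: Ptpre between -1.57 (pseudocount 0.1) and -0.98 (pseudocount 1), and Ptprg between -1.21 and -0.92 under the same settings. With a minimum mean of 2 RPKM Ptpre is no longer tested, so the members lower become 1, the member rows lower 1 and the rRNA-depleted members lower 1; at that minimum the ligands lower number 3 and the markers of other cell types lower 0, as fewer genes are tested. The members higher were 0 with no filter on low values, and the rRNA-depleted members higher 1 with a pseudocount of 0.1, quantile normalization or the mean of all rows. Leaving out 1 library at a time, members higher ran from 0 to 1, member rows higher from 0 to 2, cytosolic phosphatases higher from 1 to 5, ligands higher from 0 to 3, intracellular partners higher from 4 to 8 and neuroblastoma markers higher from 1 to 4, while members lower stayed at 2. Ptpra changed sign with median-ratio scaling (-0.027) and without Luc replicate 2 (-0.0092) or Sfpq replicate 3 (-0.016), with 0.033 as its highest value when 1 library was left out; Ptprs did so without Luc replicate 2 (0.042) or Sfpq replicate 1 (0.00067), with -0.200 as its lowest; neither was called in any of these. The cause of these shifts was not tested. Of 772 recomputed values, 719 kept direction and side of the threshold or stayed within 1.5 times or the spread between replicates. Whether replicate numbers pair the libraries was not settled by their values. Deviations from the group means correlated at 0.33, -0.04 and 0.16 between same-numbered libraries, and between -0.28 and 0.17 for other numbers. Luc replicate 1 correlated best with its own number and Luc replicate 2 with another. Luc replicate 3 did so with another number by a narrow margin (0.166 against 0.157). With a replicate block 2 members were lower and 1 higher (Ptprj limma adjusted p = 0.0372), and no count of members or lists moved by over 1.5 times. Depth in reads is unknown, so no limit of detection can be given for Ptprd, Ptprk and Ptprm.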

Other observations

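The 5 RefSeq rows of Ptprr did not fall alike. NM_011217 had a log2 fold change of -2.07 and the other 4 rows lay between -2.73 and -2.61. The ratio of NM_011217 to NM_001161839 was 0.944, 0.9997 and 0.913 in the Luc and 3.14, 1.60 and 1.76 in the Sfpq poly(A) libraries, so the groups did not overlap (log2 difference 1.12, two-sided exact permutation p = 0.1, the smallest that 3 against 3 libraries allow; chosen after the values were seen). The rRNA-depleted libraries, with 1 per group, gave 1.11 and 2.32. The Sfpq values of NM_001161839 are low (0.543 ± 0.218 RPKM, SD, n = 3), so these ratios are imprecise.

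Ptprt, a long MAM-domain receptor gene under the filter, had 0.256, 0.354 and 0.231 RPKM in the Luc and 0.0510, 0.115 and 0.155 in the Sfpq poly(A) libraries, and 0.377 and 0.114 in the rRNA-depleted pair. All Sfpq poly(A) values lay below all Luc ones (as for 24.7% of the genes that passed the filter, which Ptprt did not). In the fit with no filter on low values its log2 fold change was -0.36 (SE 0.09, limma adjusted p = 0.0232). The other receptor-type phosphatases lower were then 3 in place of 2, but more of the list was tested than the 3 genes above. Of the 17014 genes in that fit, 2270 were lower and 2490 higher.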
